A study of Homo sapiens with 14 samples.

Results

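The SOX genes encode transcription factors with a shared DNA-binding domain, the HMG box, and 8 of them are described here: SOX2, SOX4, SOX5, SOX6, SOX8, SOX9, SOX10 and SOX11. They were taken by name from the 19970 protein-coding genes of GENCODE on the autosomes and X, not by a cut on any measured value. Earlier results of these data were known when they were chosen. The data are CUT&RUN maps of TC-32, an established Ewing sarcoma cell line that carries EWSR1::FLI1, labelled WT and left untreated. The study asked in which chromatin that fusion protein binds. CUT&RUN sequences DNA fragments that a nuclease tethered to an antibody frees from intact cells.

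Of the 14 samples, 4 used an antibody to FLI1, 2 replicates in a set called A and 2 in a set called B. These libraries are called A1, A2, B1 and B2 below, by set and replicate. What separates the sets is not said in the labels. H3K27ac, which marks active promoters and enhancers, was mapped in 2 replicates of set A. Set B also holds 2 replicates each of H3K9me3 and H3K27me3, which are found on silenced chromatin. The remaining 4 samples were IgG controls, 2 per set, against which the deposited peaks were called. All samples came from the same untreated line, so no group lacks the fusion and no treated or depleted cells serve as a contrast. An antibody to FLI1 alone cannot separate the fusion from unfused FLI1. Whether replicates were separate cultures is not stated.

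SOX proteins bind the minor groove of DNA and fall into groups of close relatives: SOXB1 (SOX2), SOXC (SOX4 and SOX11), SOXD (SOX5 and SOX6) and SOXE (SOX8, SOX9 and SOX10). SOX2 maintains pluripotent and neural progenitor cells, the SOXC factors act in neural and mesenchymal progenitors, SOX9 with SOX5 and SOX6 drives cartilage formation, and SOX10 specifies neural crest and glia. EWSR1::FLI1 recognises the ETS core GGAA, and in Ewing sarcoma it is known for binding tandem GGAA repeats as well as single ETS sites. SOX2 and SOX6 have both been described as genes under its control.

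The sequences at the FLI1 regions that the results turn on are shown first, on the hg38 genome and 5′ to 3′. A region was counted as having a tandem repeat where a run of at least 4 GGAA units lay within 250 bases of a summit, whether inside the interval or beside it. The strongest such region of SOX5 and of SOX6 had the following runs, with GGAA in capitals. A region here is a peak interval, its percentile is its place by fold over IgG within its own list, and strength is the mean of that percentile over the 4 FLI1 lists. Both lie on the plus strand within introns.
SOX5, chr12:24307733-24307840: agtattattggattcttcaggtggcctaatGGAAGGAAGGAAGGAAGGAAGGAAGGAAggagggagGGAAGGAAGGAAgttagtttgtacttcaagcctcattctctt
SOX6, chr11:16349646-16349788: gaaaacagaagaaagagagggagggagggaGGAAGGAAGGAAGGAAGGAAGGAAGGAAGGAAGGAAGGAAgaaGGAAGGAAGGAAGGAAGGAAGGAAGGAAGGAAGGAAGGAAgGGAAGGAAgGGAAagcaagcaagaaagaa
The SOX5 stretch has a run of 7 units and 10 GGAA in all. That run lies 2 bases outside the region's interval and was assigned to it by its distance from the summits. The SOX6 stretch is broken into several runs, the longest of 10 units, with 23 GGAA in all. A longer uninterrupted run, of 16 units, stood in another shared region of both SOXD genes. These were picked after their values had been seen, to show the longest runs.
SOX5, chr12:24307423-24307546: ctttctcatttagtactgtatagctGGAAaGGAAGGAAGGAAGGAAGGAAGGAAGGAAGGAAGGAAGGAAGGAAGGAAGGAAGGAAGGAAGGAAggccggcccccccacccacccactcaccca
SOX6, chr11:16373793-16373916: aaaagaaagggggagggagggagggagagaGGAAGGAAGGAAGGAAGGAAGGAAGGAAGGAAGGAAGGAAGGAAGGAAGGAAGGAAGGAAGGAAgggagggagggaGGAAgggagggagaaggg

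At SOX4, SOX11 and SOX9 the strongest region found in all 4 FLI1 lists had no such repeat. The 101 bases around the leading summit of each, the base with the most signal in the list where the region ranked highest, are shown for contrast on the plus strand, with GGAA and TTCC (GGAA on the other strand) in capitals.
SOX4, chr6:21742514-21742614: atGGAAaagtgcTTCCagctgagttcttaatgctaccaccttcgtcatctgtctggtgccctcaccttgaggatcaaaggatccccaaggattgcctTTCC
SOX11, chr2:5834596-5834696: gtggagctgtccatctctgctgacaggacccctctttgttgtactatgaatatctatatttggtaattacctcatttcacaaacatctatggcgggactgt
SOX9, chr17:72030684-72030784: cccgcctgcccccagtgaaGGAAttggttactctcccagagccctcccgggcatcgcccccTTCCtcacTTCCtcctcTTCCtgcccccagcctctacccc
The SOX4 window held 3 such cores, the SOX9 window 4 and the SOX11 window 0. The corresponding windows at SOX8 and SOX10 held 0 each. Over the 14905 repeat-free FLI1 regions of all 4 lists in the genome, the median was 1, and 71.3% held at least 1.

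FLI1 was also present in all 4 lists at the starts of SOX2, SOX4 and SOX6. The 250 bases before those starts (RefSeq, GRCh38.p14) are shown because peaks of all 4 lists overlap them, again with GGAA and TTCC in capitals. At SOX4, and at SOX2 in B2, the peaks cover only part of the stretch. The cores counted below are therefore those of the stretch, not of the peaks. The SOX6 sequence is from the minus strand.
SOX2, chr3:181711675-181711924: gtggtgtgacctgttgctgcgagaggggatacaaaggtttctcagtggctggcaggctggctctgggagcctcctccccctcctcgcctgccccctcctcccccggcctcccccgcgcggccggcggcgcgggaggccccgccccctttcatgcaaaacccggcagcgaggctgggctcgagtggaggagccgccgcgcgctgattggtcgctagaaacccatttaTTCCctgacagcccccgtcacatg
SOX4, chr6:21593501-21593750: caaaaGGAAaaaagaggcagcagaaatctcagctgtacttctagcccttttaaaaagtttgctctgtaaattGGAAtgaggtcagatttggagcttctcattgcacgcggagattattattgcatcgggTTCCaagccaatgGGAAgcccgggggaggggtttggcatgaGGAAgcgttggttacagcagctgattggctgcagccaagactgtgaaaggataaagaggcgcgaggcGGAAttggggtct
SOX6, chr11:16356547-16356796: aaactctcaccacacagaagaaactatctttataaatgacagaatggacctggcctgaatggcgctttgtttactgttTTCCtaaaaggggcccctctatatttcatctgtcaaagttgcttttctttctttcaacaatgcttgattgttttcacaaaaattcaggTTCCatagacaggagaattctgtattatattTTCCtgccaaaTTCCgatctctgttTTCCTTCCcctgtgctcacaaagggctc
SOX2 had 1 core in this window, SOX4 had 6 and SOX6 had 6 at its main start, beside a median of 3 over 35116 promoters of that length. Another SOX6 promoter, at the 5′ end of the gene, also had FLI1 in all 4 lists and held 2 cores. It is not printed. None of the 3 printed stretches contained CCGGAA on either strand, an extended ETS site that 14.5% of the promoters contained. The promoter table matched 4 of the 8 genes, SOX2, SOX4, SOX5 and SOX6.

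The 8 genes fell into distinct states at their starts. Here the start is that of the MANE Select transcript, the reference transcript chosen for each gene, and a list counts as present when it has a region within 1 kb. SOX2, SOX4 and SOX11 had FLI1 in 4 of 4 lists and no histone mark in any of the 6 others. SOX6 had FLI1 in 4 of 4 lists and H3K27ac in replicate 2 only. SOX8 and SOX9 had H3K27me3 in both replicates, SOX5 had it in replicate 1 alone, and SOX10 had no region of any list. FLI1 in all 4 lists was thus found at 4 of 8 starts, where 35.4% of all protein-coding starts had it. H3K27me3 in both replicates was found at 2 of 8 starts (background 9.96%) and H3K27ac in both at 0 of 8 (background 12.5%). No member start had H3K9me3. A peak list gives no read totals, so an empty cell means that no peak was called, not that nothing was bound.

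**Figure D1:**
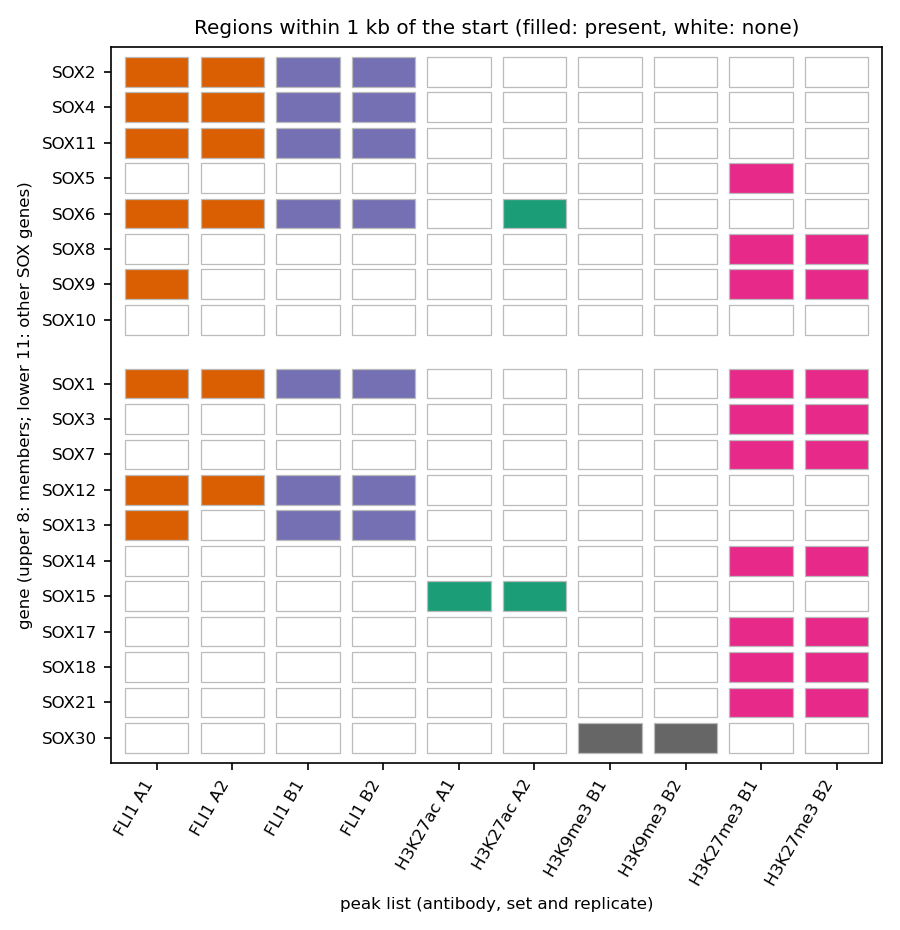
Presence of a region within 1 kb of the start, for the 8 members (upper rows) and 11 other SOX genes (lower rows), in the 10 peak lists; columns give antibody, set and replicate, and colours separate antibodies and sets. SOX2, SOX4, SOX11 and SOX6 are filled in all 4 FLI1 columns, whereas SOX8 and SOX9 are filled in both H3K27me3 columns.

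Among the 11 other SOX genes, FLI1 was at the start in all 4 lists for SOX1 and SOX12, and H3K27me3 in both replicates for 7: SOX1, SOX3, SOX7, SOX14, SOX17, SOX18 and SOX21. SOX12, the remaining SOXC gene, matched SOX2, SOX4 and SOX11 in all 10 lists. SOX3, SOX7, SOX14, SOX17, SOX18 and SOX21 matched SOX8 in all 10. SOX1 carried both FLI1 and H3K27me3, a pairing found at 35 of the 7068 protein-coding starts with FLI1 in all 4 lists, or 0.495%.

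Counted over the gene body with 10 kb either side, FLI1 was found in all 4 lists at 5 of 8 members, SOX2, SOX4, SOX11, SOX5 and SOX6, beside 56.3% of all protein-coding genes. The share near members was therefore close to the background. The members differed widely in how many regions they held. SOX6 stood at rank 10 of the 19970 genes by mean number of FLI1 regions, SOX5 at rank 243, SOX2 at 963, SOX4 at 1717 and SOX11 at 3110. SOX8 and SOX10 had none in any list.

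**Figure D2:**
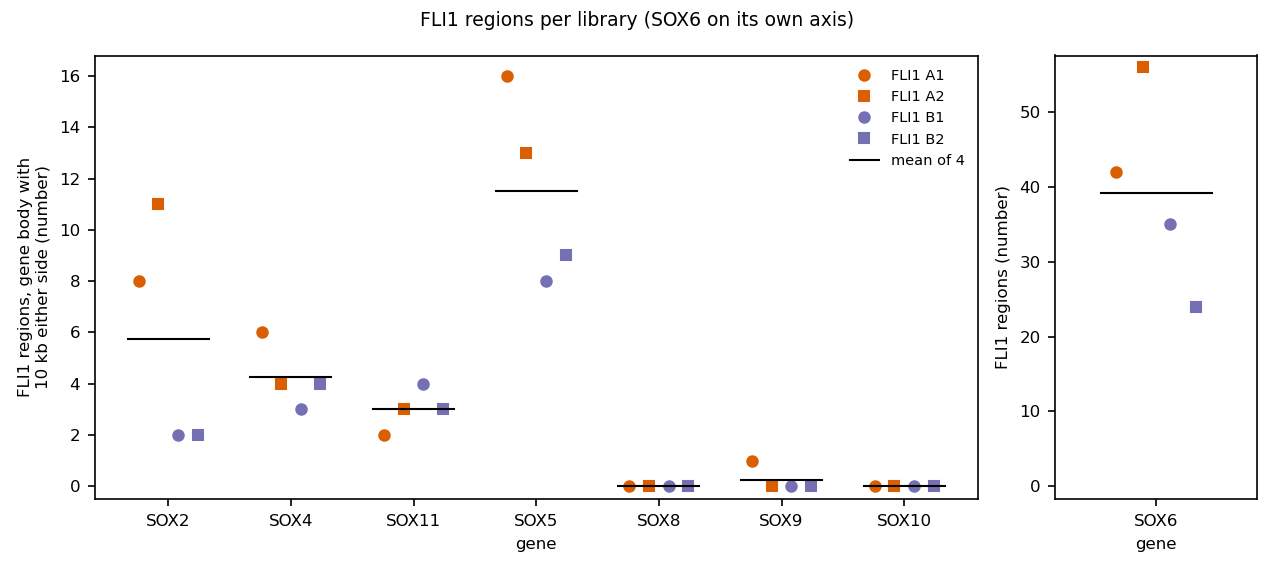
Number of FLI1 regions in the gene body with 10 kb either side, by library (circles replicate 1, squares replicate 2; orange set A, violet set B) with the mean of the 4 as a line; SOX6 has its own axis. SOX6 ranges from 24 to 56, SOX2 has 8 and 11 in set A against 2 and 2 in set B, and SOX8 and SOX10 are at 0.

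SOX2 had FLI1 over its start and a strong repeat-bearing region far downstream. SOX2 (chr3:181711925-181714436, plus strand) lies within the long non-coding gene SOX2-OT. At the start, the strongest peak had a fold over IgG of 11.5 and 11.1 in A1 and A2 and 8.16 and 7.43 in B1 and B2. Within their own lists these peaks stood at percentiles of 78 and 78.9 in A1 and A2 and 49.7 and 42.5 in B1 and B2. A peak within 1 kb of the start was thus in every list, at a higher percentile in both set A lists than in both set B lists. In B2 that peak lay upstream, from -1.171 to -0.405 kb. The B2 peak over the start itself had a fold of 4.55, at percentile 6.22. The 4 regions of the gene body window seen in A1 and A2 but not in B1 or B2 flanked the start on both sides. FLI1 regions numbered 8 and 11 in A1 and A2 and 2 and 2 in B1 and B2, a mean of 5.75 ± 4.5 (SD, n = 4). When every list was trimmed to the 29339 strongest peaks that the shortest holds, the numbers were 6 and 6 against 2 and 2. How many of all genes differ between the sets in this way is not given here. With 2 libraries against 2, an exact permutation test cannot go below 0.33, and none was made.

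The strongest SOX2 region lay 197.3 kb downstream of the start in intergenic sequence, with SOX2 as the nearest protein-coding start. Its folds were 21.4 and 31.4 in A1 and A2 and 19.6 and 13.0 in B1 and B2, a mean percentile of 89.6. None of the 6 histone lists had a region on it. H3K27ac within 200 kb of SOX2 was called in replicate 2 only, at 6.8 and 24.5 kb downstream of the start, with folds of 5.86 and 4.84. Small H3K9me3 regions of both replicates stood 7.9 and 7.4 kb upstream of the start, with folds of 4.20 and 4.27. No H3K27me3 region lay within 200 kb of the gene.

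SOX4 and SOX11, the SOXC pair, had FLI1 at the start in all 4 lists and a stronger region well downstream, neither with a repeat. SOX4 (chr6:21593751-21598619, plus strand) had start folds of 8.03 and 14.3 in A1 and A2 and 7.68 and 13.3 in B1 and B2. FLI1 regions in its window numbered 6 and 4 in A1 and A2 and 3 and 4 in B1 and B2, a mean of 4.25 ± 1.26 (SD, n = 4). The sets overlapped at SOX4. The region at its start and another 5.2 kb upstream were in all 4 lists.

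The strongest SOX4 region, chr6:21741350-21743244, stood 148.5 kb downstream over an exon of the long non-coding gene CASC15. Its folds were 18.2 and 21.6 in A1 and A2 and 23.9 and 12.3 in B1 and B2, a mean percentile of 88.4. All 5 SOX4 regions shared by the 4 lists lay outside every histone region. Within 200 kb, H3K27me3 of both replicates was strongest 71.9 kb downstream of the start (folds 6.07 and 6.58). H3K27ac was not called there in either replicate.

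SOX11 (chr2:5692384-5701385, plus strand) had start folds of 12.3 and 13.8 in A1 and A2 and 7.49 and 4.72 in B1 and B2. The percentiles of these peaks were 80.3 and 85.2 in A1 and A2 and 42.9 and 7.88 in B1 and B2. They did not all lie at the same place. Measured from the start, the peaks spanned -0.389 to -0.157 kb in A1 and -0.384 to -0.12 kb in A2. The B1 peak spanned -0.359 to 0.104 kb and the B2 peak -0.042 to 0.158 kb. The set A and B2 values are therefore of different stretches. Regions numbered 2 and 3 in A1 and A2 and 4 and 3 in B1 and B2, a mean of 3 ± 0.816 (SD, n = 4). The strongest region, chr2:5834172-5835200, was intergenic and 142.3 kb downstream. Its folds were 22.3, 30.5, 24.9 and 10.2 in A1, A2, B1 and B2, and its mean percentile was 87.6. A 10-unit repeat 21.0 kb upstream of SOX11 lay in a region of set A alone, with folds of 4.13 and 4.83 and percentiles of 6.55 and 19.8 in A1 and A2, and was near a summit in 1 of those lists. No H3K27ac was called within 200 kb of SOX11.

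**Figure D3:**
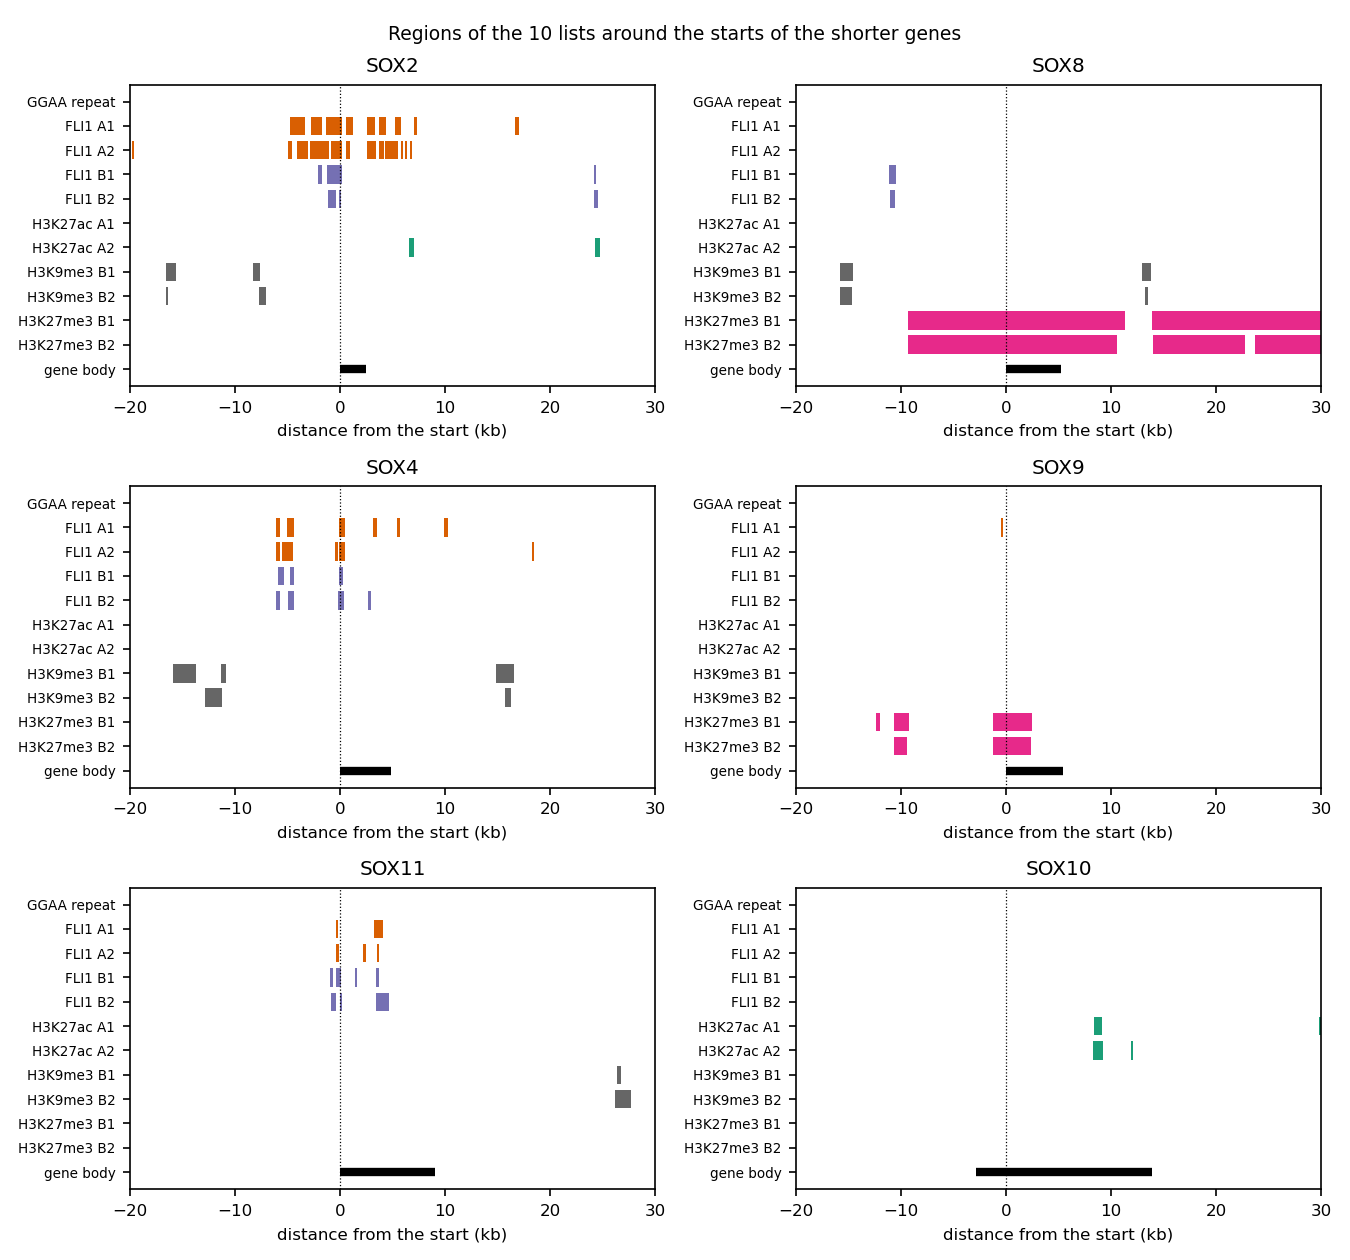
Regions of the 10 lists from 20 kb before to 30 kb after the start (dotted line) of the 6 shorter genes; each row is a list, black bars are gene bodies, and the narrowest regions are widened to remain visible. FLI1 rows are filled within 1 kb of the starts of SOX2, SOX4 and SOX11. An H3K27me3 block spans SOX8 and a shorter one covers the SOX9 start. Inside SOX10 only H3K27ac is drawn, with another H3K27ac region of replicate 1 at the right edge of its panel.

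SOX5 and SOX6 are long genes that produce proteins without an activation domain of their own, which bind together with SOX9 in cartilage. They differed widely in FLI1, H3K27ac and H3K9me3. SOX6 (chr11:15966449-16739591, minus strand, 773.1 kb) held 42 and 56 FLI1 regions in A1 and A2 and 35 and 24 in B1 and B2, a mean of 39.2 ± 13.4 (SD, n = 4). SOX5 (chr12:23529504-24562544, minus strand, 1033 kb) held 16 and 13 in A1 and A2 and 8 and 9 in B1 and B2, a mean of 11.5 ± 3.7. Both had more in set A. For SOX6 that order depended on list length: among the 29339 strongest peaks of each list it held 30 and 23 in A1 and A2 and 19 and 24 in B1 and B2, and the sets overlapped.

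Length matters for such counts, so the density was compared with that of other long genes. SOX6 had 4.95 FLI1 regions per 100 kb and SOX5 had 1.09, beside 1.18 ± 0.16 (SD, n = 4) over the genome. Among the 322 protein-coding genes of at least 500 kb, whose median was 0.433, SOX6 ranked 6 and SOX5 ranked 89. Of those 322 genes, 70.2% had FLI1 in all 4 lists.

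The FLI1 regions of SOX6 formed groups. The densest surrounded the main start, at position 16356546. Shared regions also stood 247.2 to 256.4 kb upstream of it and 207.8 to 354.2 kb downstream. Within the gene window, 64 distinct regions were found in any list, of which 13 were in all 4, 6 in both set A libraries alone, 2 in both set B libraries alone and 36 in a single library. Of the 15 distinct regions at SOX5, 6 were in all 4 lists and 4 in both of set A alone.

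The strongest FLI1 region near any member covered the SOX6 main start, chr11:16346785-16359831, with folds of 106 and 155 in A1 and A2 and 37.0 and 32.4 in B1 and B2. Its mean percentile was 98.9. In set A it was a single interval of 12.3 and 12.4 kb, and its fold is that of its most significant part. The leading summit of the region lay 6.6 kb downstream of the start, so the folds of 106 and 155 are not folds at the start. In set B the interval over the start itself was 1.54 and 1.48 kb, with folds of 12.4 and 17.5, and the higher folds belonged to separate peaks. The 10-unit run printed above lies 6.8 kb downstream of the start, inside the set A interval. In every list the nearest summit was between 232 and 240 bases from the middle of that run.

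A second strong SOX6 region, chr11:16371227-16375917, lay 17.0 kb upstream of the main start in an intron of longer transcripts and held the 16-unit run. Its folds were 42.0, 81.1, 28.0 and 18.9 in A1, A2, B1 and B2 (mean percentile 96.0). Another, chr11:16895246-16907144, had a 14-unit run near its summits in 2 of the 4 libraries. This region was outside SOX6 in an intron of the neighbouring gene PLEKHA7, 155.7 kb beyond the 5′ end of the SOX6 gene model. Its folds were 43.7, 39.9, 36.3 and 25.0 (mean percentile 97.2). The other 2 repeat-bearing regions of SOX6 were intragenic, 230.8 and 334.9 kb downstream of the main start, with runs of 15 and 11 units and mean percentiles of 80.7 and 84.8.

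Most of the coincidence of H3K27ac with FLI1 near the members was at SOX6. H3K27ac regions numbered 13 and 21 in the 2 replicates. Of the 13 FLI1 regions in all 4 lists within the gene window, 8 overlapped H3K27ac of at least 1 replicate, beside 30.8% of such regions over the genome. The 8 included the joined region of 13.0 kb over the main start and the region at the 5′ end of the gene. The region over the main start alone held 3 H3K27ac regions of replicate 1 and 8 of replicate 2, with folds from 3.74 to 6.76. The strongest H3K27ac intervals of the gene were at its ends. One, 386.9 kb downstream of the main start at the 3′ end, had folds of 7.48 and 7.95. The other, 382.3 kb upstream in replicate 1, had a fold of 9.01, and a narrower one at the same place in replicate 2 had 3.99. That 5′ end of SOX6 is also the start of C11orf58, 0.3 kb from the leading FLI1 summit there, so the 2 genes cannot be told apart at that point.

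H3K9me3 covered 60.9 and 36.3 kb of the SOX6 body, and 32.7 kb (4.22%) lay in both replicates, beside 1.06% of the genome. Bases with H3K27ac in both replicates came to 5.55 kb, or 0.718% of the body beside 0.096% of the genome. None of the 64 FLI1 regions overlapped H3K9me3 of either replicate, beside 2.28% of the FLI1 regions of any list over the genome, and the count is near that background. No H3K27me3 was called within 200 kb of SOX6.

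**Figure D4:**
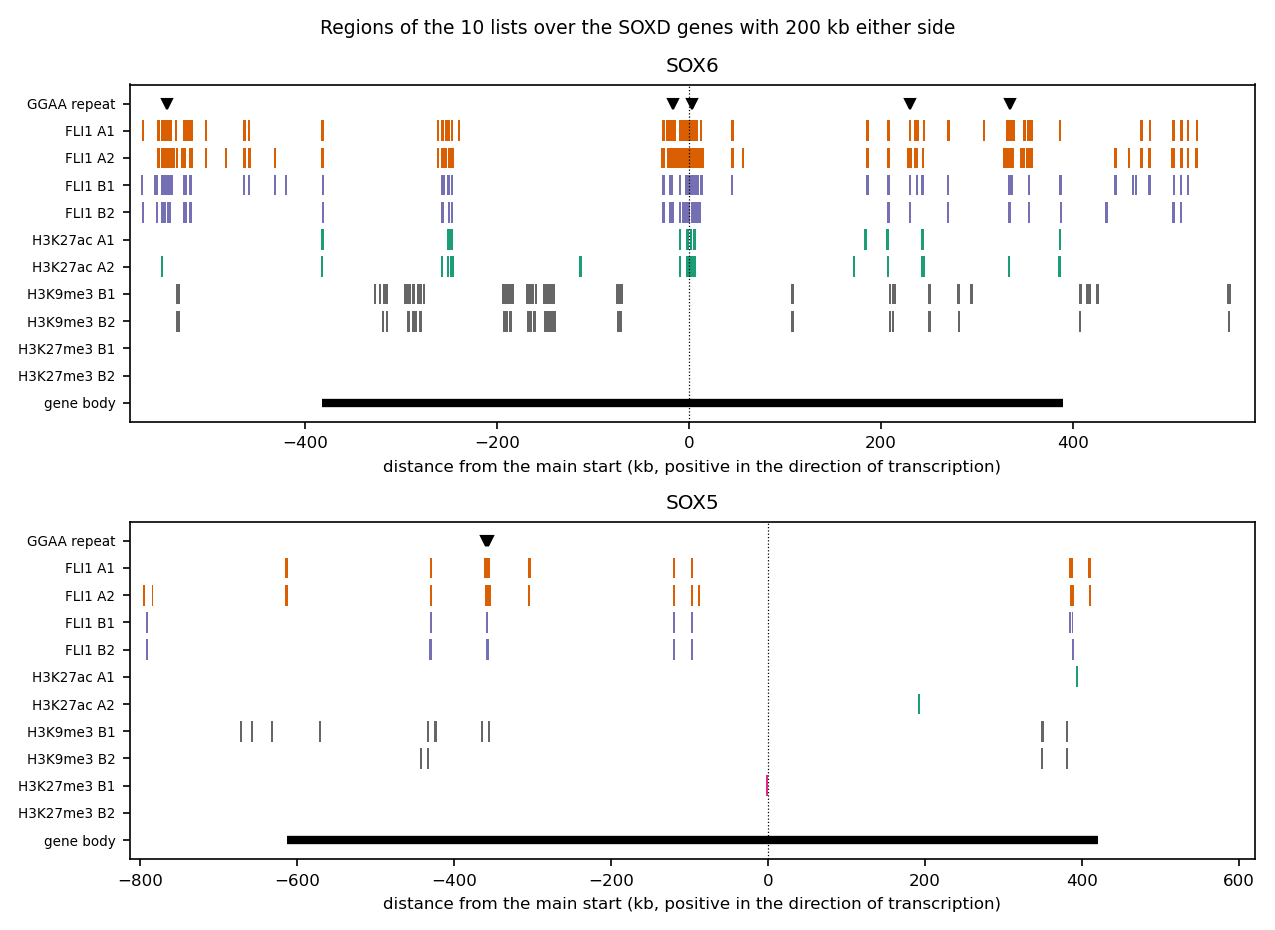
Regions of the 10 lists over SOX6 (upper) and SOX5 (lower) with 200 kb either side, by distance from the main start (dotted line); triangles mark FLI1 regions of all 4 lists with a GGAA repeat near a summit, black bars are gene bodies, and the narrowest regions are widened to remain visible. SOX6 has regions in the FLI1, H3K27ac and H3K9me3 rows along the gene, while SOX5 has few regions and a pair of adjacent repeats.

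SOX5 had no FLI1 region at its main start, position 23949670. Its strongest regions were an adjacent pair in an intron 359.5 and 357.1 kb upstream of that start, both with repeats. The stronger of the pair, chr12:24307793-24310594, had folds of 45.8 and 44.2 in A1 and A2 and 39.8 and 32.2 in B1 and B2, a mean percentile of 98.0. Its neighbour, chr12:24306056-24307582, held the 16-unit run and had folds of 29.4, 30.5, 7.91 and 18.0 (mean percentile 82.2). The libraries therefore ranked the 7-unit region above the 16-unit one in all 4 cases. Of 11 annotated coding starts of SOX5, the pair at the gene's 5′ end had FLI1 in A1 and A2 but not in B1 or B2.

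SOX5 counted as having H3K27ac in both replicates, but the 2 regions were at different places, 393.6 and 191.8 kb downstream of the start, and no base was in both. The members with H3K27ac in both replicates of the gene window were SOX5, SOX6 and SOX10, 3 of 8 beside 28.3% of all genes. H3K9me3 at SOX5 was in both replicates over 2.6 kb (0.251% of the body), less than over the genome. H3K9me3 was in both replicates in the gene windows of SOX2, SOX5, SOX6 and SOX8, 4 of 8 beside 25.3% of all genes. Of genes of at least 500 kb, 68.6% had it.

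SOX8, SOX9 and SOX10, the SOXE group, had the fewest FLI1 regions within 10 kb of the gene body. SOX8 (chr16:981770-986979, plus strand), which acts beside SOX9 and SOX10 in the gonad and glia, was wholly inside H3K27me3. The covering regions were 20.7 and 19.9 kb wide, with folds of 7.53 and 6.19, at percentiles 98.8 and 94.8 of their lists. H3K27me3 continued beyond the gene: within 200 kb either side there were 21 and 33 regions, and 177 kb (43.6% of the window) lay in both replicates, beside 0.903% of the genome. No FLI1 was called within 10 kb. The strongest FLI1 region, chr16:923779-925482, lay 57.1 kb upstream in an intron of LMF1, with folds of 22.9, 23.6, 35.0 and 20 in A1, A2, B1 and B2 (mean percentile 94.3). It had no repeat and overlapped no histone region.

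SOX9 (chr17:72121020-72126416, plus strand), the main regulator of cartilage, had H3K27me3 at the start in both replicates over a much shorter stretch. The regions were 3.76 and 3.61 kb wide with folds of 5.84 and 5.58. Both reached a −log10 q near 5, at 5.38 and 4.84, so the call in both replicates was lost at a threshold of 5. A small FLI1 region, 0.201 kb wide with a fold of 5.36, stood at the start in A1 and in no other library. Within 200 kb, H3K27me3 in both replicates came to 8.84 kb (2.18%). Another region of comparable width, 4.28 and 3.23 kb, lay 98.8 and 98.3 kb downstream of the start in the 2 replicates, with folds of 5.59 and 6.69.

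The strongest FLI1 region near SOX9, chr17:72030120-72031003, was 90.5 kb upstream over exons of the long non-coding genes LINC01152 and ROCR. Its folds were 11.1 and 7.54 in A1 and A2 and 21.4 and 9.5 in B1 and B2, the lowest mean percentile (73.1) among the strongest regions of the 8 members. No H3K27ac and no H3K9me3 was called within 200 kb of SOX9 in any replicate.

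SOX10 (chr22:37970686-37987422, minus strand), the neural crest and glial factor, had neither FLI1 nor a repressive mark within 10 kb. It had H3K27ac inside the gene, 8.8 kb downstream of the main start in replicate 1 and 8.7 kb in replicate 2. The folds were 6.87 and 5.86, and the intervals shared 0.724 kb. None of its 6 annotated coding starts had a region of any list. The strongest FLI1 region, chr22:37848582-37850015, lay 135.3 kb downstream of the main start and 0.1 kb from the start of another gene, EIF3L. Its folds were 25.9, 24.4, 33.4 and 29.9 (mean percentile 95.9). Within 200 kb of SOX10, FLI1 regions numbered 7 and 6 in A1 and A2 and 13 and 11 in B1 and B2. Of the 43 FLI1 regions in all 4 lists near members, CCGGAA lay within 50 bases of the leading summit in 2, both near SOX10, and that share, 4.65%, was close to the 4.32% of all such regions.

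**Figure D5:**
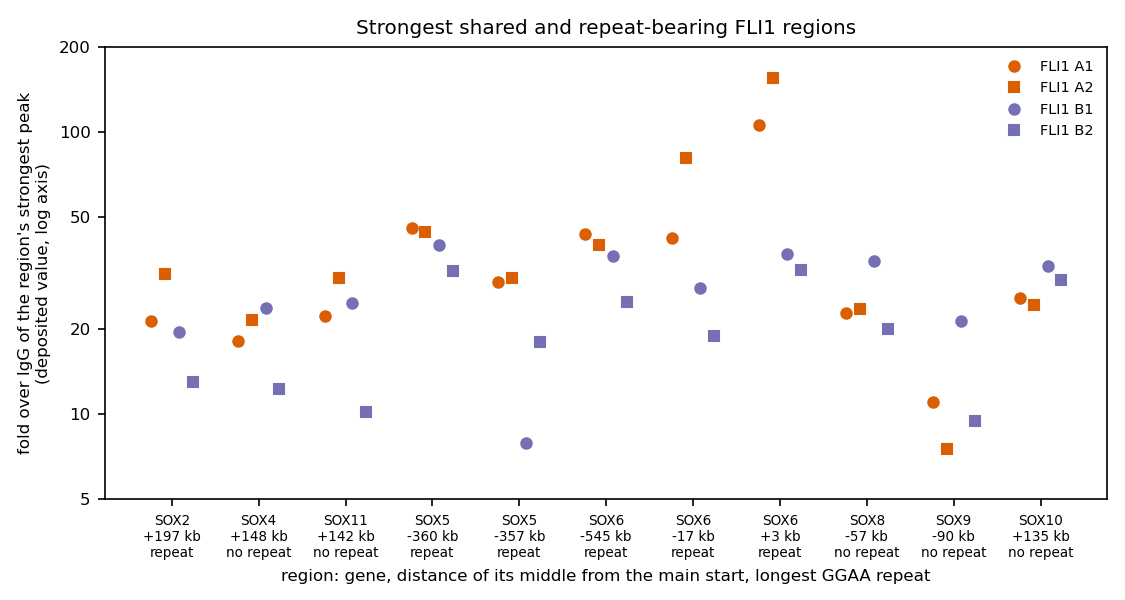
Deposited fold over IgG (log axis) of the strongest FLI1 region of each member found in all 4 lists, and of up to 3 such regions with a GGAA repeat per member, by library (circles replicate 1, squares replicate 2; orange set A, violet set B). The joined SOX6 region that covers the main start reaches 106 and 155 in A1 and A2 and 37.0 and 32.4 in B1 and B2. Its leading summit is 6.6 kb downstream of that start. The SOX9 region is among the lowest.

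Within 200 kb of the 8 genes, 182 distinct FLI1 regions were found in any list. Of these, 43 (23.6%) were in all 4 lists, beside 29.3% over the genome. Both set A libraries alone had 25 (13.7%, genome 10.3%) and both set B libraries alone had 12 (6.59%, genome 7.15%). The SOX6 window contributed 104 of the 182, so these shares mostly describe that window. Of those 104, 64 were in the SOX6 gene body. Of the 43, 11 overlapped H3K27ac of either replicate (25.6%, genome 30.8%), 9 of them near SOX6. None overlapped H3K9me3 (genome 2.28%) or H3K27me3 (genome 0.353%).

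A repeat of at least 4 GGAA units within 250 bases of a summit was found in 8 of the 43 regions, 5 near SOX6, 2 near SOX5 and 1 near SOX2, beside 7.78% of all FLI1 regions in the 4 lists. The median mean percentile of the 8 was 92.8, from 80.7 to 98.9. Over all 1258 repeat-bearing regions it was 88.7, and over all 16163 regions of the 4 lists it was 67.6. By summit, the share with a repeat near the members was 5.65% and 3.42% in A1 and A2 and 7.27% and 9.41% in B1 and B2, a mean of 6.44% ± 2.53 (SD, n = 4). The genome shares were 3.86%, 3.81%, 3.84% and 4.08%. A2 was below its genome value near the members and the other 3 libraries were above theirs.

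Most summits stood beside the repeats, not on them. Distances to a run are given from its middle. At the SOX5 7-unit run the summits lay 209, 208, 215 and 210 bases away in A1, A2, B1 and B2. Summits were nearer at the SOX5 16-unit run, 196 and 122 bases away in A1 and A2 and 79 and 72 in B1 and B2. Near the members, 1 summit in each set B library and 0 in each set A library had at least 4 whole units within 100 bases. The genome shares at that distance were 0.0994% and 0.118% in A1 and A2 and 0.952% and 0.852% in B1 and B2.

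The genes that SOX9 and SOX10 are known to activate were set beside their regulators. Of 6 cartilage genes, COL2A1, ACAN and HAPLN1 had H3K27me3 at the start in both replicates, 3 of 6 beside 9.96% of all starts, and COL9A1, COL11A2 and MATN1 did not. The HAPLN1 calls were weak, with a −log10 q of 2.4 and 3.15 at percentiles 0.247 and 33 in the 2 replicates. None of the 6 had FLI1 at the start in all 4 lists (35.4% of all starts) or H3K27ac in both replicates (12.5%). Among 4 neural crest and glial genes, RET had H3K27me3 in both replicates, 1 of 4 beside the same 9.96%, and ERBB3, a receptor of the glial lineage, had FLI1 in all 4 lists at its start. MITF and DCT had neither. FLI1 in all 4 lists within 10 kb was found at 2 of the cartilage genes, COL11A2 and MATN1, and at ERBB3 of the 4, beside the 56.3% given above.

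The FLI1 lists held between 29339 and 40590 regions, H3K27ac 10219 and 17366, H3K9me3 36687 and 21770, and H3K27me3 21461 and 16667. Fold was higher in set A at its extremes, with maxima of 347 and 402 against 141 and 100, while the median was lower, at 6.88 and 6.46 against 8.2 and 8.1. Folds of the 2 sets at a member are therefore on different scales, and percentiles within a list were used beside them. A percentile also depends on how many regions its list holds, so it is not a fully common scale either.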

How the data were processed

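Peak lists of 10 CUT&RUN libraries were analysed; the 4 IgG libraries entered only as the controls of the authors' peak calls. Per the submitters' processing notes, cutadapt 4.4, Bowtie2, Picard 2.17.11, MACS2 2.1.1 and hg38 (GRCh38) were used, and the notes as used here give no role or order for them. Per the names in the files, each library had its own peak call after duplicate removal, with the IgG library that carries its set letter and replicate number as control, and no replicates were pooled. The deposited values are a fold, the ratio of a peak's signal to its IgG control, together with 2 significance columns, the −log10 p-value and the −log10 q-value. The lowest deposited −log10 q was 2. The deposited score column was not used. Deposited summit positions were available for FLI1 and H3K27ac; the H3K9me3 and H3K27me3 lists are broad peaks without one.

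The 8 genes and the comparison lists were chosen with earlier results of these data known. The rule for what is named was the strongest region of each gene found in all 4 FLI1 lists, by mean percentile of fold, and up to 3 such regions with a GGAA repeat. Peaks that overlapped within a list were joined, and the joined peak took the values of its most significant part. FLI1 regions of the 4 lists were joined into 55109 distinct regions, and one counted as in all 4 lists when each contributed at least 1 peak to it. A joined region can hold separate peaks of different lists. A GGAA repeat was a run of 4 or more whole GGAA or TTCC units within 250 bases of a summit in hg38. Gene models came from GENCODE release 44, and promoter sequences from RefSeq. Of the 19970 starts, 19016 were MANE Select starts, and the Ensembl canonical start or the 5′ end of the gene served otherwise. Counts stand beside the same count over all protein-coding genes or all regions, with no p-value, since membership was chosen with results known. The counting steps were tested on simulated peaks with known answers. Window, start, threshold, repeat length and distance, overlap rule and each library were varied. Read totals are not in the lists, so depth and its counting error are unknown. The software was Python 3.11.15, numpy 2.4.6, pandas 2.3.3, pysam 0.24.0, samtools 1.23.1 and, for figures, matplotlib 3.10.9. Chromosome Y, with SRY, was left out. Some of the genes and sequences considered are not reported here.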

Additional observations from a re-analysis of the deposited data

How the results depend on the processing

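The number of members with FLI1 in all 4 lists, 5 in the gene window of 10 kb, was 8 at 200 kb either side and 3 at a −log10 q of at least 10 (SOX4, SOX5 and SOX6), where 91.4% and 40.7% of all genes counted against 56.3%, and 5 whichever FLI1 library was left out. H3K27me3 at the start, 2 members, was 1 (SOX8) at a −log10 q of at least 5 (all starts 4.03%), and 2 to 3 with either replicate left out. H3K27ac at the start, 0 members, was 1 (SOX6) at the 5′ end of the gene (all genes 11.3%) or within 2.5 kb (15.5%), 2 (SOX6 and SOX10) within 10 kb (19.8%), and 0 to 1 with a replicate left out, SOX6 appearing without H3K27ac replicate 1 (21.5%). H3K9me3, 4 members, was 2 (SOX5 and SOX6) in the gene body alone (all genes 18.7%) or at a −log10 q of at least 5 (7.56%), against 25.3%, and 4 to 5 with a replicate left out. Repeat-bearing FLI1 regions, 8, fell to 1 when at least 4 units of the repeat had to be within 100 bases of a summit. They fell to 0 under 50% reciprocal overlap with the region of set A replicate 1, where the set A intervals are the wider ones. The count was 8 whichever library was left out. The mean share of summits with a repeat, 6.44%, was 0.521% within 100 bases and 9.27% at 10 kb either side, and 5.45% to 7.44% with a library left out. Of 72 other settings of FLI1 regions per member, 12 moved the mean beyond its SD and 60 did not; 11 of the 12 changed the window, and the remaining one lowered SOX6 to 24 among equal numbers of strongest peaks. No paired analysis was possible because no result comes from a test. Read depth is not given, so an uncalled peak may reflect depth, and differences between sets A and B cannot be told apart from other differences between the libraries.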
